A study of Mus musculus with 6 samples.

Results

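The 52 genes described here encode lysosomal hydrolases and other proteins of the lysosomal lumen (33 genes), proteins of the lysosomal membrane or of export to the lysosome from the endoplasmic reticulum (ER; 9 genes), and subunits of the vacuolar proton pump, the V-ATPase (10 genes). They were taken by gene symbol from a table of 42365 gene rows, and all 52 passed the filter on low counts. The table held RNA-seq read counts for 6 libraries of mouse neural progenitor cells (NPC), cells that can be grown in culture and can give rise to neurons and glia. The study compared wild-type parental cells, 2 libraries named as parental clones 1 and 2, with cells labelled as knockout. The knockout library names begin with PARKIN_KO, which names Parkin as the targeted gene. Of these libraries 2 were from knockout clone 1 and 2 from knockout clone 2. The labels give no treatment, time point or age, and they do not say how the knockout was made or whether the libraries of a clone came from separate cultures, so p-values that rest on libraries of a clone measure a spread that may be technical. The genotype rests on 2 clones. The level of the targeted gene, as a share of all counts, was below both parental libraries in 0 of the 4 labelled knockout libraries. A gene's total count also covers exons outside an edited part, so this does not show whether the gene still works, and the clones are called labelled knockout clones throughout.

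Lysosomes are the acidic compartments in which cells break down proteins, glycans, lipids and material delivered by endocytosis and autophagy. The soluble hydrolases are made in the ER, many are carried from the Golgi by mannose 6-phosphate receptors, and they work at the low pH that the V-ATPase maintains. Loss of single enzymes or membrane proteins causes lysosomal storage disorders, many of which damage the brain, and the CLN genes are named after the neuronal ceroid lipofuscinoses. Many lysosomal genes carry a short promoter element, the CLEAR motif, that is bound by TFEB, TFE3 and MITF.

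The promoters were read first for that element. RefSeq promoter sequences of the mouse build GRCm38.p6, from 250 bases before to 50 bases after the start, were matched for 43 of the 52 genes by symbol. The core CACGTG, a palindrome that reads the same on both strands, was found in 15 of the 43 (34.9%), against 8.09% of all 27025 genes in the table and 7.15% of their 32851 promoters of the same length. The longer form GTCACGTG, searched on both strands and always containing the core, was found in 11 of the 43 (25.6%), against 2.55% of all genes and 2.25% of all promoters. The 7 stretches of 30 bases below are shown because they hold the longer form in the genes whose RNA changed between labelled knockout and parental cells, so that a reader can set the element beside the direction of change; they run 5′ to 3′ along the gene, with the match in capitals. The first 4 genes rose and the last 3 fell.
Naglu: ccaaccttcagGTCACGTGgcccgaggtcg
Sgsh: ggcctgccgtgCACGTGACcgtggggagcg
Glb1: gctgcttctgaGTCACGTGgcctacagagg
Gla: gtgagatctcgGTCACGTGagcaactctcg
Cln3: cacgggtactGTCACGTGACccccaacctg
Lamp1: atgccgactggCACGTGACcacatcacgtg
Atp6v0d1: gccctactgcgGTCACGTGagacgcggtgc
In Cln3 the capitals cover 2 overlapping matches, 1 on each strand. The stretches of Cln3, Sgsh, Naglu and Gla overlap exons annotated in GENCODE, of any gene, so they are not purely untranscribed sequence. That of Cln3 lies inside the span GENCODE gives for the gene. In GRCm38.p6 the stretches lie at chr11:101070008-101070037 (plus strand) for Naglu, chr11:119355521-119355550 (minus) for Sgsh, chr9:114401017-114401046 (plus) for Glb1, chrX:134601183-134601212 (minus) for Gla, chr7:126583340-126583369 (minus) for Cln3, chr8:13159122-13159151 (plus) for Lamp1 and chr8:105566051-105566080 (minus) for Atp6v0d1. The longer form was present in genes of both directions: of its 11 carriers 4 rose, 3 fell and 4 did not pass the test, and of the 32 matched genes without it 7 rose, 6 fell and 19 did not pass. The median size of the log2 fold change was 0.53 in the carriers and 0.34 in the others, and no test of that difference was made. A match is only a run of letters, and no binding was measured.

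**Figure D1:**
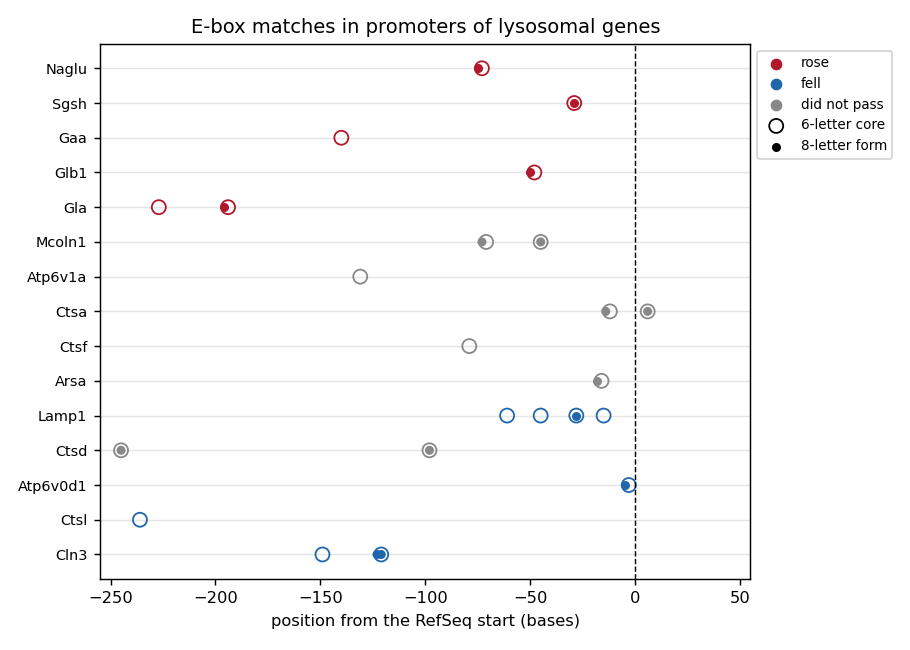
Position of the core (open circles) and of the longer form (filled dots) in the promoters of the 15 lysosomal genes that hold either, in bases from the RefSeq start (dashed line); colours give the direction in labelled knockout against parental cells. Matches are seen in genes that rose, fell and did not pass the test; of the 15 genes 5 rose, 4 fell and 6 did not pass.

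Across the 52 genes, rises and falls were about equally frequent in the labelled knockout clones. In bulk libraries such as these, fewer cells of a type and less RNA per cell cannot be told apart. In labelled knockout against parental cells, 25 of the 52 passed the test (48.1%), 13 higher and 12 lower, where 26.7% of all 24506 genes tested passed, 13.0% higher and 13.6% lower. The share was larger at higher levels: among the 11021 genes that averaged 5 CPM (read counts scaled to a common library total) or more, which include 49 of the 52, 34.6% passed. The median log2 fold change was 0.00 in the 52 and 0.03 in all genes tested. Its median size was 0.37 in the 52, 0.44 in all genes and 0.32 in the genes of at least 5 CPM. The change divided by role: 11 of the 33 luminal genes rose and 6 fell, 2 of the 9 membrane and ER genes rose and 5 fell, and 1 of the 10 V-ATPase genes fell with none higher. The number of calls falls across all genes when a parental library is left out. With parental library 1 left out 8 of the 25 remained, while 9.62% of all genes passed, and with parental library 2 left out 9 remained, while 9.59% of all genes passed. The fold changes of the genes that lost their call kept their direction in these fits. With both parental libraries kept and any single knockout library left out 21 to 28 of the 52 genes passed. The 8 that passed whichever library was left out were Cln3, Ctsc, Ctsz, Ctsb, Arsb, Cd63, Naglu and Sgsh.

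**Figure D2:**
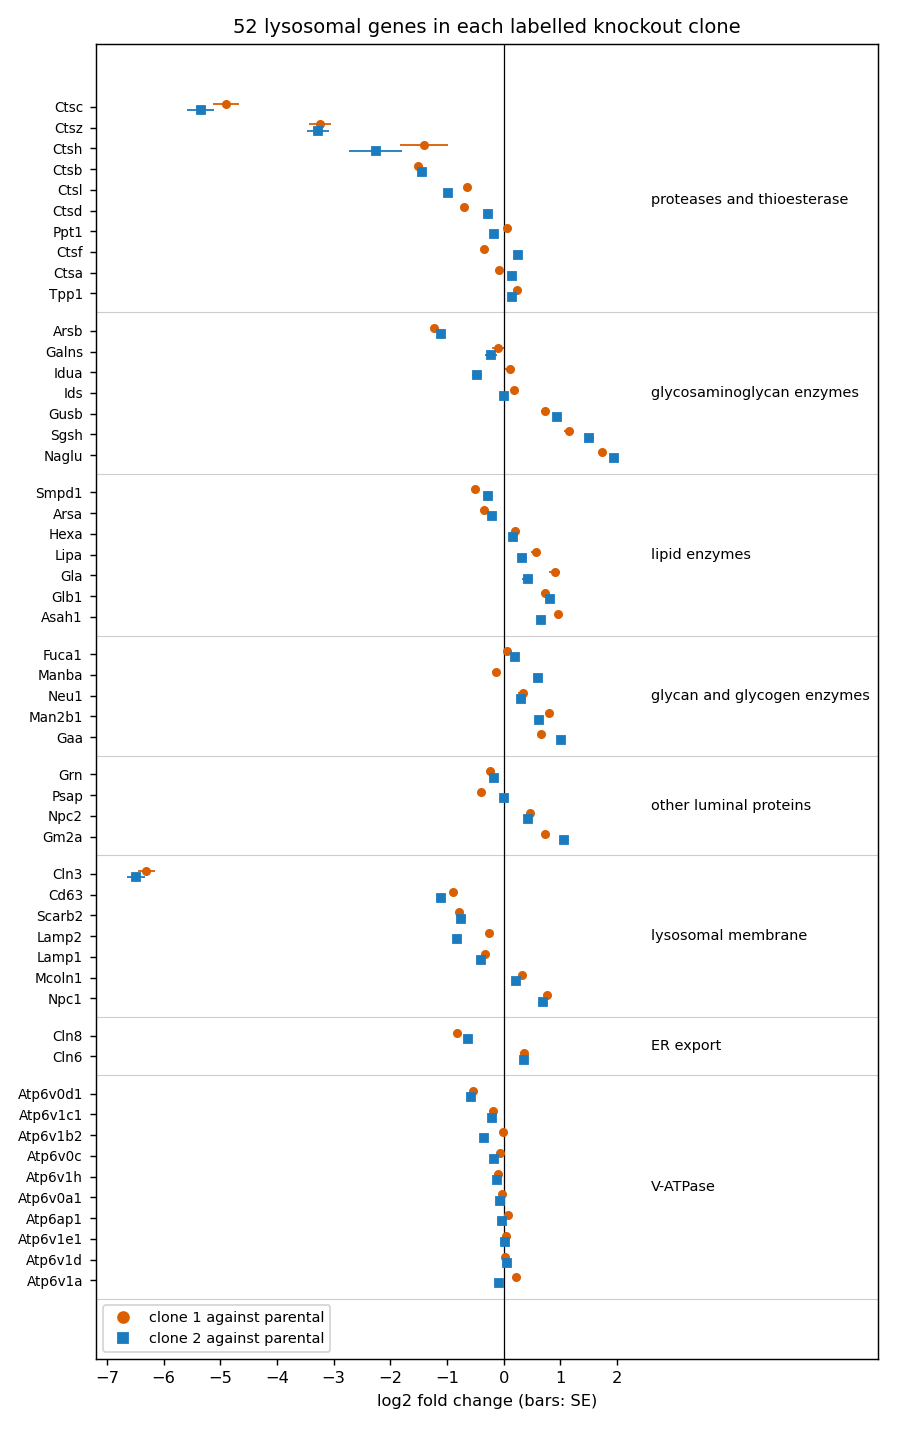
Log2 fold change of each of the 52 genes in clone 1 (circles) and clone 2 (squares) against the parental libraries, with bars for the standard error, grouped by role. Cln3, Ctsc and Ctsz lie farthest to the left in both clones, and Naglu and Sgsh farthest to the right. The V-ATPase genes lie nearer 0 than these, with Atp6v0d1 at -0.54 and -0.58 and Atp6v1b2 at -0.35 in clone 2.

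Each clone gave a larger count when its own 2 libraries were set against the parental ones. Clone 1 had 39 of the 52 genes called (19 higher, 20 lower; 54.5% of 23400 genes passed in that comparison, 27.3% higher and 27.2% lower), and clone 2 had 43 (21 higher, 22 lower; 53.5% of all genes passed, 26.7% higher and 26.8% lower). Among genes of at least 5 CPM, 73.1% passed in clone 1, close to the share of the 52, and 70.7% in clone 2, against 82.7% of the 52. Of the 52, 17 rose in both clones and 18 fell in both, 1 was called in opposite directions (2.09% of all genes were), and 6 passed in neither. Among the 27 genes that did not pass in the joint comparison, 4 rose in both clones (Tpp1, Hexa, Neu1 and Mcoln1). Another 6 of the 27 fell in both (Ctsd, Smpd1, Arsa, Grn, Lamp2 and Atp6v1c1). How many of all genes rose in both, fell in both or passed in neither is not given. These counts therefore do not show whether the lysosomal genes differ from other genes in this. The 2 comparisons share the parental libraries. In levels, all 4 labelled knockout libraries lay above both parental libraries for 17 genes and below both for 23, where 56.7% of all genes lay apart in this way, 28.1% above and 28.6% below.

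Cathepsins, the proteases of the lysosome, held the largest falls among the luminal genes. Of the 10 proteases and thioesterases, 5 fell, none rose and 5 did not pass in labelled knockout against parental cells. Of all genes, 13.6% fell and 13.0% rose there. Values are given as library 1 and library 2 of each group. Ctsc encodes cathepsin C, a peptidase that activates granule proteases. Its level was 8.43 and 7.67 CPM in parental cells, 0.259 and 0.277 in clone 1 and 0.106 and 0.292 in clone 2 (log2 fold change -5.08, SE 0.24, adjusted p = 0.000334). Ctsz, for the carboxypeptidase cathepsin Z, was at 6.73 and 6.65 CPM in parental cells, 0.900 and 0.525 in clone 1 and 0.679 and 0.698 in clone 2 (log2 fold change -3.23, SE 0.18, adjusted p = 0.000445). Both genes were low in parental cells and close to silent in every knockout library. Ctsb, for cathepsin B, is by contrast one of the most abundant genes of the set. Its level was 918 and 927 CPM in parental cells, 330.1 and 317 in clone 1 and 341 and 339 in clone 2 (log2 fold change -1.44, SE 0.09, adjusted p = 0.00057). The 4 knockout values lie within a narrow band at about a 2.7-fold lower level than in parental cells. Ctsl, for the endopeptidase cathepsin L, was at 125 and 114 CPM in parental cells, 73.5 and 79.5 in clone 1 and 60.1 and 61.2 in clone 2 (log2 fold change -0.77, SE 0.13, adjusted p = 0.0131). Ctsh, for the aminopeptidase cathepsin H, was near the detection limit throughout, at 0.514 and 0.475 CPM in parental cells, 0.183 and 0.189 in clone 1 and 0.0906 and 0.114 in clone 2 (log2 fold change -1.74, SE 0.41, adjusted p = 0.0319), which corresponds to between 6 and 33 counts. The groups do not overlap for any of these 5, which had passed the test. Of all genes, 28.6% lay below both parental libraries in every knockout library. With parental library 1 or 2 left out the calls of Ctsl and Ctsh were lost (adjusted p from 0.0559 to 0.143). Ctsb shares 774 of its 6051 exonic bases with the opposite-strand gene Fdft1, and without strand information reads there cannot be assigned. The same holds for Ctsl, which shares 1742 of its 6489 exonic bases with the opposite-strand gene Gm47123, for which no counts were given.

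Cathepsin D and cathepsin F did not pass in the joint comparison, and the clones differed in both. Ctsd, for the main aspartic protease of lysosomes, was at 268 and 262 CPM in parental cells, 154 and 171 in clone 1 and 211 and 225 in clone 2 (log2 fold change -0.44, SE 0.16, adjusted p = 0.096). It was lower in both clones (log2 fold change -0.70, SE 0.05, adjusted p = 4.35e-09 in clone 1; log2 fold change -0.28, SE 0.05, adjusted p = 0.000182 in clone 2), and less so in clone 2. In the joint comparison it passed with DESeq2 (adjusted p = 0.042), limma-voom (0.0236), the replicate block (0.0345) and libraries as replicates (4.38e-08). The last setting, here and below, counts libraries of a clone as independent, and 56.5% of all genes passed with it. Ctsd shares 808 of its 2351 exonic bases with the same-strand gene Gm49369, which had at most 2 counts in a library. Ctsf, for the cysteine protease cathepsin F, was at 38.4 and 36.4 CPM in parental cells, 28.5 and 30.2 in clone 1 and 44.7 and 44.2 in clone 2, and was the gene called in opposite directions: -0.35 in clone 1 (adjusted p = 7.58e-05) and 0.25 in clone 2 (adjusted p = 0.00153). Tpp1, a tripeptidyl peptidase, Ctsa, the protective protein of galactosidase and sialidase, and Ppt1, a thioesterase that removes fatty acids from proteins, had log2 fold changes of 0.23, 0.06 and -0.03 and did not pass. In each clone taken alone Tpp1 was called higher (0.24 in clone 1 and 0.15 in clone 2). Its clone 2 call was lost without parental library 1. Added up, the 10 genes stood at 1741 and 1743 CPM in parental libraries 1 and 2, against 999.8 and 1004 for clone 1 and 1052 and 1078 for clone 2. Most of that difference is Ctsb: the 9 other genes summed to 823 and 816 CPM in parental cells and to 669.7 to 739 CPM in the knockout libraries.

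Enzymes that degrade glycosaminoglycans moved in both directions. Of 7, 3 rose, 1 fell and 3 did not pass, where 13.0% of all genes rose and 13.6% fell. Naglu encodes the glucosaminidase that removes N-acetylglucosamine from heparan sulfate. It had the largest rise of the 52 genes in the joint comparison, at 12.7 and 13.2 CPM in parental cells, 43.2 and 42.6 in clone 1 and 50.8 and 48.8 in clone 2 (log2 fold change 1.87, SE 0.12, adjusted p = 0.000666). Sgsh, for the sulfamidase of the same pathway, was at 8.39 and 8.47 CPM in parental cells, 19.8 and 17.7 in clone 1 and 24.2 and 23.9 in clone 2 (log2 fold change 1.38, SE 0.17, adjusted p = 0.00413). Gusb, for beta-glucuronidase, was at 22.9 and 23.4 CPM in parental cells, 38.04 and 38.5 in clone 1 and 43.4 and 46.01 in clone 2 (log2 fold change 0.87, SE 0.12, adjusted p = 0.00635). In all 3 genes, which had passed the test, every knockout library lay above both parental ones, where 28.1% of all genes did. Arsb, for the sulfatase that acts on dermatan and chondroitin sulfate, went the other way, at 130.2 and 135 CPM in parental cells, 57.6 and 55.3 in clone 1 and 61.8 and 61.5 in clone 2 (log2 fold change -1.14, SE 0.09, adjusted p = 0.00126). Gusb lost its call with parental library 1 or 2 left out (adjusted p 0.0677 and 0.0738). Sgsh shares 955 of its 4414 exonic bases with the opposite-strand gene Card14, which had at most 59 counts in a library. Arsb shares 1948 of its 6037 exonic bases with the opposite-strand gene Gm26527, for which no counts were given.

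The other 3 enzymes of this group did not pass in the joint comparison. Idua, for the iduronidase of heparan and dermatan sulfate, was at 12.2 and 13.7 CPM in parental cells, 13.7 and 14.2 in clone 1 and 9.25 and 9.35 in clone 2, so that clone 2 lay below the other libraries (log2 fold change -0.48, SE 0.09, adjusted p = 0.00021 against parental). Galns, for a sulfatase of keratan sulfate, was at 6.34 and 7.14 CPM in parental cells, 6.33 and 6.22 in clone 1 and 5.80 and 5.73 in clone 2, with groups that nearly touch. Ids, for iduronate sulfatase, had a log2 fold change of 0.12. The sum of the 7 genes was 293 and 307 CPM in the parental libraries and from 285 to 302 in the 4 knockout libraries, so the summed ranges overlap.

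Among enzymes that act on lipids, 4 of 7 rose and none fell in labelled knockout against parental cells, where 13.0% of all genes rose and 13.6% fell. In each clone alone 5 rose and 2 fell. Of all genes, 27.3% rose and 27.2% fell in clone 1, and 26.7% and 26.8% in clone 2. Asah1, for acid ceramidase, was at 97.9 and 95.8 CPM in parental cells, 187 and 188 in clone 1 and 152 and 153 in clone 2 (log2 fold change 0.84, SE 0.12, adjusted p = 0.00704). Glb1, for the beta-galactosidase that acts on the ganglioside GM1, was at 18.1 and 19.2 CPM in parental cells, 30.7 and 31.3 in clone 1 and 31.97 and 34.2 in clone 2 (log2 fold change 0.81, SE 0.11, adjusted p = 0.00556). For both genes, which had passed the test, every knockout library lay above both parental ones, where 28.1% of all genes did. Gla, for alpha-galactosidase A, was at 7.06 and 7.58 CPM in parental cells, 13.6 and 13.7 in clone 1 and 10.2 and 9.35 in clone 2 (log2 fold change 0.71, SE 0.19, adjusted p = 0.0489), higher in clone 1 than in clone 2. Lipa, for the acid lipase of cholesteryl esters, was at 21.5 and 24.4 CPM in parental cells, 35.5 and 32.3 in clone 1 and 28.97 and 28.8 in clone 2 (log2 fold change 0.48, SE 0.13, adjusted p = 0.0456). These last 2 sat close to the threshold: neither passed with DESeq2's size factors, with upper quartile scaling, among genes of at least 5 CPM, or without clone 1 library 2 or clone 2 library 1 (adjusted p 0.0567 to 0.0789 without those libraries). With parental library 1 or 2 left out none of the 4 passed (0.0582 to 0.425).

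Smpd1, for acid sphingomyelinase, did not pass in the joint comparison, at 87.9 and 85.2 CPM in parental cells, 60.2 and 60.9 in clone 1 and 70.5 and 71.8 in clone 2 (log2 fold change -0.36, SE 0.11, adjusted p = 0.0716). Arsa, for arylsulfatase A, which acts on sulfatide of myelin, was at 26.6 and 28.1 CPM in parental cells, 21.4 and 21.5 in clone 1 and 24.5 and 23.2 in clone 2 (log2 fold change -0.24, SE 0.11, adjusted p = 0.184). Both were called lower in each clone taken alone, with Smpd1 at -0.51 and -0.28 and Arsa at -0.35 and -0.20. The clone 2 call of Arsa was lost without any 1 of the parental or clone 2 libraries (adjusted p up to 0.283). In the joint comparison Smpd1 passed with DESeq2 (adjusted p = 0.0387), limma-voom (0.0123), upper quartile scaling (0.0433), libraries as replicates (1.80e-07) and without clone 1 library 1 (0.0421). Hexa, for the alpha subunit of beta-hexosaminidase, had a log2 fold change of 0.21 and did not pass. In each clone taken alone Hexa was called higher (0.20 in clone 1 and 0.16 in clone 2). Both calls were lost without parental library 1. The summed level of the 7 lipid enzymes was 325 and 329 CPM in parental libraries 1 and 2, against 424 and 427 for clone 1 and 392 and 397 for clone 2.

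Of 5 enzymes of glycoproteins and glycogen, 2 rose and none fell, where 13.0% of all genes rose and 13.6% fell. Gaa, for the acid glucosidase that degrades glycogen, was at 149 and 147 CPM in parental cells, 225 and 244 in clone 1 and 290.2 and 308 in clone 2 (log2 fold change 0.88, SE 0.14, adjusted p = 0.00988). Man2b1, for the lysosomal alpha-mannosidase, was at 41.5 and 44.2 CPM in parental cells, 75.1 and 73.3 in clone 1 and 65.2 and 66.99 in clone 2 (log2 fold change 0.74, SE 0.10, adjusted p = 0.00586). Both missed the threshold with parental library 1 or 2 left out (adjusted p 0.0613 to 0.104). Manba, for the beta-mannosidase, was at 17.3 and 17.1 CPM in parental cells, 15.4 and 16.1 in clone 1 and 27.1 and 25.3 in clone 2 (log2 fold change 0.32, SE 0.25, adjusted p = 0.402): clone 2 lay above all other libraries and clone 1 slightly below the parental ones. Neu1, for the sialidase, was at 23.2 and 21.2 CPM in parental cells, 26.1 and 30.04 in clone 1 and 27.8 and 27.3 in clone 2 (log2 fold change 0.36, SE 0.11, adjusted p = 0.0616). Neu1 passed without the filter (adjusted p = 0.0357), without clone 1 library 1 (0.0456) and with libraries as replicates (0.000519). Fuca1, for the fucosidase, had a log2 fold change of 0.16 and did not pass. The 5 genes summed to 283 and 280.2 CPM in parental libraries 1 and 2, against 393 and 419 for clone 1 and 467 and 489 for clone 2.

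The other 4 luminal genes encode proteins that assist enzymes or carry lipids, and 2 of them rose, where 13.0% of all genes did. Gm2a, for the activator that presents the ganglioside GM2 to hexosaminidase, was at 260.2 and 269.6 CPM in parental cells, 448 and 434 in clone 1 and 555 and 559 in clone 2 (log2 fold change 0.95, SE 0.14, adjusted p = 0.00771). Npc2, for the carrier that hands cholesterol to NPC1, was at 133 and 136 CPM in parental cells, 176 and 198 in clone 1 and 180.1 and 182 in clone 2 (log2 fold change 0.48, SE 0.08, adjusted p = 0.012). Without parental library 1 neither passed, and without parental library 2 Gm2a alone did (adjusted p of the lost calls 0.0583 to 0.255). Psap, for prosaposin, the precursor of the saposins, was at 1299.9 and 1249.7 CPM in parental cells, 906 and 1029 in clone 1 and 1257 and 1293 in clone 2 (log2 fold change -0.15, SE 0.15, adjusted p = 0.513): clone 1 lay below the other libraries and clone 2 within the parental range. Grn, for progranulin, was at 199 and 205 CPM in parental cells, 169.7 and 171 in clone 1 and 176 and 185 in clone 2 (log2 fold change -0.17, SE 0.09, adjusted p = 0.205). In each clone taken alone Grn was called lower (-0.25, adjusted p = 0.000119 in clone 1, and -0.16, adjusted p = 0.00435 in clone 2). The clone 2 call was lost in some of the fits that leave out a library.

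**Figure D3:**
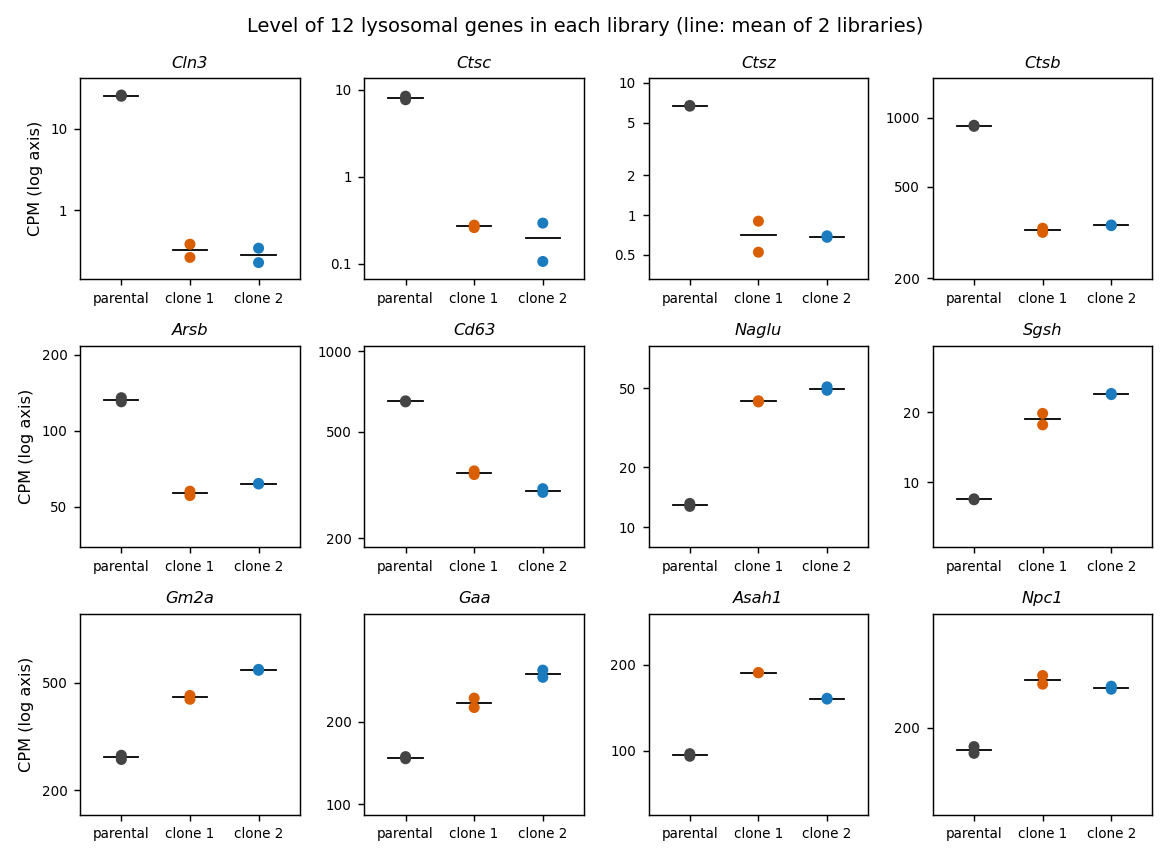
Level in each library, in CPM on log axes that differ between panels, of 12 genes of the set: 6 that fell (Cln3, Ctsc, Ctsz, Ctsb, Arsb, Cd63) and 6 that rose (Naglu, Sgsh, Gm2a, Gaa, Asah1, Npc1) in labelled knockout cells; lines are means of 2 libraries. The parental points stand apart from both clones in all 12 panels, whose genes had all passed the test.

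At the lysosomal membrane the largest single change of the set was seen. Cln3 encodes a membrane protein of late endosomes and lysosomes, and its loss causes juvenile neuronal ceroid lipofuscinosis. It was at 25.1 and 25.99 CPM in parental cells, 0.381 and 0.262 in clone 1 and 0.226 and 0.341 in clone 2 (log2 fold change -6.37, SE 0.16, adjusted p = 0.00013). Its RNA was below 1 CPM in all 4 knockout libraries, and the fall passed the test with any single library left out. Cln3 lies on the minus strand of chr7:126571207-126585817 (GRCm38, GENCODE), and 442 of its 5781 exonic bases are shared with the opposite-strand gene Apobr, which had at most 40 counts. In the joint comparison none of the 8 other protein-coding genes tested within 100000 bases of it passed as lower. The largest falls among them were log2 fold changes of -0.79 in Apobr (adjusted p = 0.157) and -0.59 in Sult1a1 (adjusted p = 0.164). Both were under 1 CPM in every library, where the test can miss a fall. Eif3c, a translation initiation factor gene, had a log2 fold change of -0.12 (adjusted p = 0.339), Tufm, a mitochondrial elongation factor gene, -0.19 (adjusted p = 0.378), and Sgf29, for a chromatin reader, 0.16 (adjusted p = 0.485). Atxn2l rose by 0.55 (adjusted p = 0.0144) and the stress gene Nupr1 rose by 1.90 (adjusted p = 0.0144) on the log2 scale. In the clones taken alone Eif3c was lower in both (-0.13, adjusted p = 0.0173, and -0.18, adjusted p = 0.00225), and Tufm (-0.41, adjusted p = 5.91e-06) and Sh2b1 (-0.22, adjusted p = 0.0067) were lower in clone 1, all by far less than Cln3.

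Of the other 6 membrane genes, 3 fell, 1 rose and 2 did not pass, where 13.6% of all genes fell and 13.0% rose. Cd63, for a tetraspanin of late endosomes, lysosomes and exosomes, was at 646 and 651 CPM in parental cells, 357 and 345 in clone 1 and 306 and 296 in clone 2 (log2 fold change -0.96, SE 0.10, adjusted p = 0.00286). Scarb2, for LIMP-2, which carries glucocerebrosidase to the lysosome, was at 368 and 367 CPM in parental cells, 216 and 208 in clone 1 and 222 and 217 in clone 2 (log2 fold change -0.74, SE 0.08, adjusted p = 0.0035). Lamp1, for an abundant glycoprotein of the membrane, was at 881 and 915 CPM in parental cells, 722 and 715 in clone 1 and 675 and 693 in clone 2 (log2 fold change -0.32, SE 0.09, adjusted p = 0.0456). For these 3 genes, which had passed the test, every knockout library lay below both parental ones, by the least for Lamp1. Of all genes, 28.6% lay below in this way. Npc1, for the transporter that moves cholesterol out of the lysosome, was the one that rose, at 165 and 173 CPM in parental cells, 298 and 279 in clone 1 and 269 and 275 in clone 2 (log2 fold change 0.76, SE 0.09, adjusted p = 0.00342). Lamp2, which takes part in chaperone-mediated autophagy, was at 634 and 643 CPM in parental cells, 572 and 497 in clone 1 and 369 and 349.8 in clone 2 (log2 fold change -0.49, SE 0.19, adjusted p = 0.119). Mcoln1, for a calcium channel of the lysosome, was at 42.03 and 43.8 CPM in parental cells, 51.9 and 55.4 in clone 1 and 49.5 and 49.8 in clone 2 (log2 fold change 0.30, SE 0.09, adjusted p = 0.0668). Lamp2 did not overlap between the groups but was spread between the clones, with clone 2 the lower. With parental library 1 or 2 left out Scarb2, Lamp1 and Npc1 lost their calls (adjusted p 0.0629 to 0.517), and Lamp1 also did without clone 1 library 2 or clone 2 library 1 (0.0626 and 0.0511), with the replicate block (0.119) and without the filter (0.121). Lamp2 passed with the replicate block (0.0303), without clone 1 library 1 (0.048) and with libraries as replicates (1.24e-07). Mcoln1 passed without the filter (0.0364) and with libraries as replicates (0.000115).

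The genes of export from the ER, Cln6 and Cln8, encode partners in a complex that loads newly made hydrolases into transport vesicles, and they moved in opposite directions. Cln8 was at 71.02 and 74.1 CPM in parental cells, 39.4 and 42.2 in clone 1 and 45.95 and 47.7 in clone 2 (log2 fold change -0.70, SE 0.11, adjusted p = 0.00949). Cln6 was at 21.5 and 22.4 CPM in parental cells, 28.5 and 27.5 in clone 1 and 27.2 and 29.3 in clone 2 (log2 fold change 0.39, SE 0.10, adjusted p = 0.0416). Cln6 was near the threshold and did not pass with DESeq2's size factors, with upper quartile scaling, among genes of at least 5 CPM, with the replicate block (adjusted p = 0.088), or without clone 1 library 2 (adjusted p = 0.0641); with parental library 1 or 2 left out neither gene passed (0.09 to 0.458). The 9 membrane and ER genes together stood at 2853 and 2916 CPM in parental libraries 1 and 2, against 2286 and 2169 for clone 1 and 1963 and 1958 for clone 2.

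The V-ATPase subunit genes had the smallest differences of the 3 classes. Of the 10, Atp6v0d1 alone, for the subunit d of the membrane sector that couples it to the central stalk, passed in the joint comparison, at 138 and 136 CPM in parental cells, 90.6 and 98.6 in clone 1 and 88.7 and 94.6 in clone 2 (log2 fold change -0.53, SE 0.08, adjusted p = 0.0092). It lost the call with parental library 1 or 2 left out (adjusted p 0.167 and 0.2). The 9 others had log2 fold changes from -0.17 to 0.11, none with an unadjusted p under 0.05, and the SE of a V-ATPase gene was at most 0.12. The smallest adjusted p among them was 0.247, which does not show that the genes were equal. In levels, 6 of the 10 genes, Atp6v0d1 included, were lower in all 4 knockout libraries than in both parental ones, none was higher, and 4 overlapped, where 28.6% of all genes lay lower and 56.7% apart in either direction. Of the catalytic sector, Atp6v1b2, for the B subunit, was at 145 and 143 CPM in parental cells, 142 and 142 in clone 1 and 114 and 112 in clone 2, with clone 2 below all other libraries (log2 fold change -0.35, SE 0.04, adjusted p = 2.47e-06 against parental). Atp6v1a, for the catalytic A subunit, was at 177 and 175 CPM in parental cells, 209 and 200.2 in clone 1 and 169 and 164 in clone 2, with clone 1 above the others (log2 fold change 0.22, SE 0.04, adjusted p = 0.000386 against parental). The proton-binding ring subunit gene Atp6v0c had log2 fold changes of -0.07 in clone 1 (adjusted p = 0.157) and -0.17 in clone 2 (adjusted p = 0.0022). Atp6v1c1, for a stalk subunit, was at -0.20 (adjusted p = 0.00969) and -0.20 (adjusted p = 0.00823). These calls were lost in some of the fits that leave out a library. In the clones taken alone 3 of the 10 genes passed in clone 1 (1 higher, 2 lower) and 4 in clone 2, all lower. Of all genes, 54.5% and 53.5% passed there. The median size of the log2 fold change in labelled knockout against parental cells was 0.08 in the 10 V-ATPase genes and 0.48 in the 42 other genes, of which 24 passed (57.1%). Summed, the 10 subunit genes gave 1330 and 1339 CPM in parental libraries 1 and 2, against 1316 and 1308 for clone 1 and 1200 and 1207 for clone 2.

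**Figure D4:**
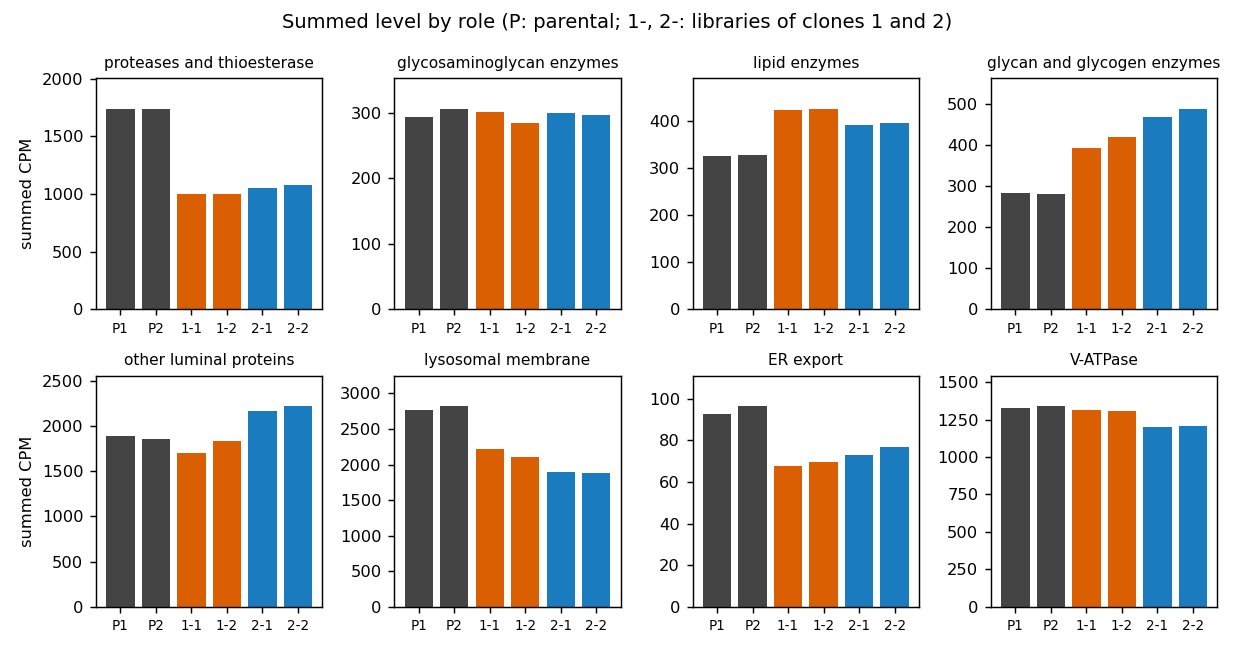
Summed CPM of the genes of each role in each library, with bars from 0 (P1, P2: parental; 1-1, 1-2: clone 1; 2-1, 2-2: clone 2). The summed proteases, which Ctsb dominates, and the summed membrane genes are lower in all 4 knockout libraries, the lipid and glycan enzymes higher, and the glycosaminoglycan enzymes overlap.

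Levels were also set side by side per length. In CPM per kilobase of exon, Psap was highest in all 3 groups (465 in parental cells, 353 in clone 1 and 465 in clone 2), followed by Lamp1 (336, 269 and 256). Ctsb was the fourth of the 52 in parental cells, at 152, and stood at 53.4 and 56.2 in the clones, ranks 10 and 9. Cd63 was the third in parental cells at 176 and stood at 95.3 and 81.8. Ctsh was lowest in every group, at 0.110, 0.0414 and 0.0227. All 52 genes together took 0.876% and 0.879% of parental counts, 0.727% and 0.735% of those of clone 1, and 0.765% and 0.773% of those of clone 2. Without the abundant Psap and Ctsb the other 50 genes took 0.653% and 0.661% of parental counts and 0.602% to 0.608% in the 4 knockout libraries.

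The clones differed from each other in 26 of the 52 genes, 13 higher and 13 lower in clone 2, where 36.4% of all genes passed, 16.1% higher and 20.3% lower, and 58.1% of those with at least 5 CPM. These differences were small beside the largest changes from parental cells. Several of them exceeded 0.37, the median size of the log2 fold change of the 52 in labelled knockout against parental cells. Manba had the largest that passed, at 0.73 (SE 0.07, adjusted p = 6.40e-07), followed by Ctsf at 0.60 (SE 0.06, adjusted p = 6.45e-07). Idua at -0.58 (adjusted p = 6.23e-05), Lamp2 at -0.57 (adjusted p = 1.86e-06) and Gla at -0.48 (adjusted p = 0.000478) were lower in clone 2, and Ctsd at 0.42 (adjusted p = 7.50e-06) and Psap at 0.40 (adjusted p = 1.89e-05) higher. Ctsh and Ctsc had differences of -0.86 and -0.45 that did not pass, with SEs of 0.53 and 0.41. For Cln3, Ctsz and Ctsb the difference between the clones was -0.19 (SE 0.30), -0.04 (SE 0.25) and 0.07 (SE 0.04), none of which passed. With any single library left out, 17 of the 26 differences passed in every fit; without clone 2 library 1 the genes lower in clone 2 numbered 8.

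**Figure D5:**
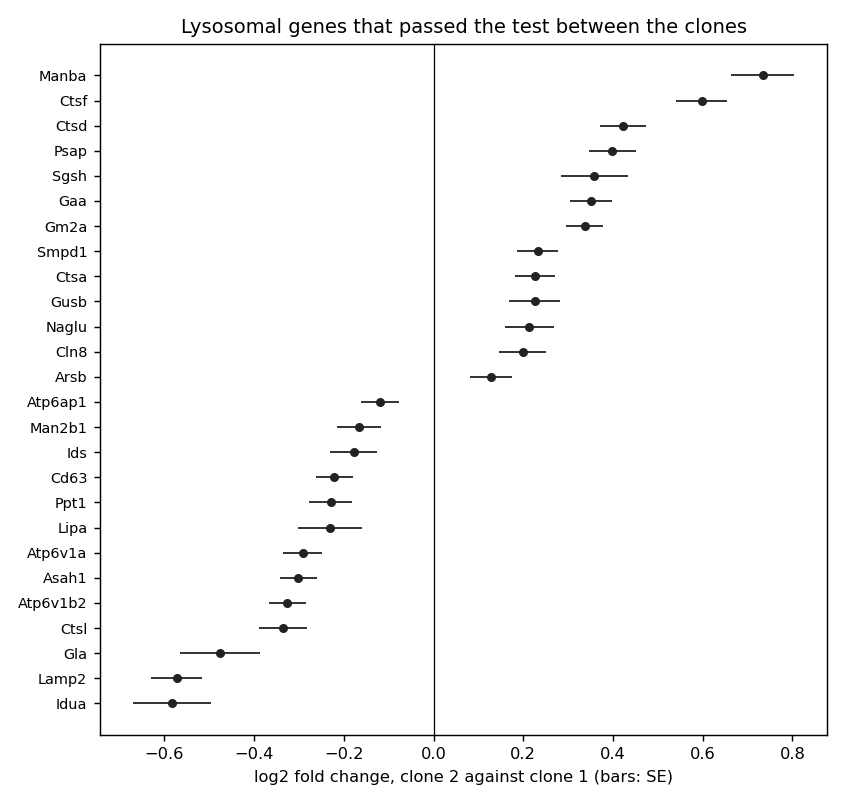
Log2 fold change of clone 2 against clone 1, with bars for the standard error, for the 26 lysosomal genes that passed the test between the clones. The 13 genes on each side of 0 stay between -0.58 and 0.73.

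Related genes were read from lists around the set, against the same 26.7% of all genes and 34.6% of those of at least 5 CPM that passed in labelled knockout against parental cells. Of 30 other lysosomal genes tested, 9 rose and 6 fell (15 called). Tpcn1, for a two-pore cation channel of endosomes and lysosomes, was at 420.1 and 419.9 CPM in parental cells, 111 and 120.2 in clone 1 and 119.5 and 126 in clone 2 (log2 fold change -1.78, SE 0.09, adjusted p = 0.000373). Galc, for galactosylceramidase of myelin lipid, was at 33.1 and 32.8 CPM in parental cells, 74.5 and 71.1 in clone 1 and 64.1 and 65.3 in clone 2 (log2 fold change 1.09, SE 0.10, adjusted p = 0.00154). Cd68, a glycoprotein gene often used as a macrophage marker, was at 6.999 and 6.89 CPM in parental cells, 2.36 and 2.10 in clone 1 and 2.26 and 2.43 in clone 2 (log2 fold change -1.57, SE 0.16, adjusted p = 0.00246). Ostm1, for a partner of a lysosomal chloride transporter, was at 27.2 and 25.3 CPM in parental cells, 52.7 and 50.7 in clone 1 and 47.7 and 44.3 in clone 2 (log2 fold change 0.93, SE 0.11, adjusted p = 0.00366). Ostm1 missed the threshold once parental library 2 was left out (0.0578). In 13 other V-ATPase genes tested the median size of the log2 fold change was 0.25, with values from -0.89 to 2.34. In the clones taken alone 11 were tested. There 9 passed in clone 1 (5 higher, 4 lower) and 5 in clone 2 (2 higher, 3 lower), where 54.5% and 53.5% of all genes passed. In the joint comparison none of the 13 rose and 2 fell (15.4% called), Atp6v0a2 (log2 fold change -0.77, adjusted p = 0.00662) and Atp6v1f (-0.35, adjusted p = 0.0402). Of 10 genes of V-ATPase assembly and regulation, 1 rose, the TLDc-domain gene Oxr1 (0.42, adjusted p = 0.0213). These last 3 missed the threshold with parental library 1 or 2 left out (adjusted p up to 0.0686, 0.471 and 0.336).

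Sorting receptors gave 2 deep falls. Of 14 genes of hydrolase sorting, none rose and 2 fell (14.3% called, against 26.7% of all genes). Igf2r encodes the cation-independent mannose 6-phosphate receptor, which carries hydrolases from the Golgi. It was at 102 and 100.1 CPM in parental cells, 2.84 and 3.10 in clone 1 and 3.77 and 4.14 in clone 2 (log2 fold change -4.84, SE 0.18, adjusted p = 0.000217). That call passed with any single library left out. The gene of the other mannose 6-phosphate receptor, M6pr, was at 78.5 and 77.7 CPM in parental cells, 72.9 and 78.01 in clone 1 and 66.1 and 65.5 in clone 2 (log2 fold change -0.11, SE 0.10, adjusted p = 0.451). Sorl1, for a sorting receptor of endosomes, was at 153 and 151 CPM in parental cells, 1.08 and 1.12 in clone 1 and 2.67 and 2.77 in clone 2 (log2 fold change -6.28, SE 0.49, adjusted p = 0.00146), and missed the threshold with parental library 1 or 2 left out (adjusted p up to 0.0598). Igf2r and Sorl1, which had passed the test, lay lower in every knockout library than in both parental ones, where 28.6% of all genes did. M6pr ranged from 65.5 to 78.5 CPM.

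Of 17 genes of lysosomal regulation and nutrient signalling tested, 1 rose and 2 fell (17.6% called, against 26.7% of all genes). Tfeb, for the transcription factor that binds the CLEAR motif, was at 30.7 and 31.996 CPM in parental cells, 11.6 and 13.3 in clone 1 and 17.5 and 18.5 in clone 2 (log2 fold change -1.01, SE 0.20, adjusted p = 0.0191). Its relative Tfe3 was at 61.5 and 64.5 CPM in parental cells, 62.1 and 61.3 in clone 1 and 55.01 and 53.7 in clone 2 (log2 fold change -0.09, SE 0.10, adjusted p = 0.564). Mitf was at 11.6 and 13.8 CPM in parental cells, 11.9 and 11.2 in clone 1 and 9.47 and 10.01 in clone 2 (log2 fold change -0.22, SE 0.16, adjusted p = 0.353). Neither passed. Fnip1, for a partner of folliculin, had a log2 fold change of 0.56 (adjusted p = 0.0208) and Rragd, for a Rag GTPase, -0.50 (adjusted p = 0.0455). The calls of Tfeb, Fnip1 and Rragd were lost with parental library 1 or 2 left out, with adjusted p up to 0.0841, 0.2 and 0.326, and Rragd also did not pass without clone 1 library 2 or clone 2 library 1. Of the 3 cystatins, inhibitors of cysteine cathepsins, 2 fell. Cst3, for the secreted cystatin C, was at 1134 and 1079.6 CPM in parental cells, 276 and 326 in clone 1 and 337 and 349.6 in clone 2 (log2 fold change -1.75, SE 0.11, adjusted p = 0.000589). Cstb, for the intracellular cystatin B, was at 9.76 and 9.92 CPM in parental cells, 1.92 and 1.94 in clone 1 and 0.423 and 0.633 in clone 2 (log2 fold change -2.97, SE 0.61, adjusted p = 0.026). Cst3 passed with any single library left out, and Cstb missed the threshold with parental library 1 or 2 left out (adjusted p up to 0.205).

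The libraries held 58871554 to 69530032 counts each, genes of the mitochondrial genome took 5.37% to 6.86% of them, and genes with a count numbered 37419 and 37678 in the parental libraries and 30747 to 32686 in the knockout ones. The 7 progenitor markers were all above 1 CPM in some library, and 2 rose and 2 fell, where 13.0% of all genes rose and 13.6% fell. The same shares apply to the marker counts below. Nes (log2 fold change 1.19) and Fabp7 (1.91) rose, Msi1 (-1.29) fell, and Sox1 fell from 60.5 and 60.4 CPM in parental cells to between 3.004 and 3.45 in the knockout libraries (-4.18). Their sum, to which Vim contributed most, was 2950 to 2960 CPM in parental cells, 2479 to 2493 in clone 1 and 3066 to 3079 in clone 2. Markers of astrocytes were mixed: 6 of 10 fell (Gfap, Aqp4, Slc1a3, Gja1, Apoe and Agt) and 1, S100b, rose (log2 fold change 0.65). Slc1a2 did not pass, but every knockout library lay above both parental ones. Aldoc was called lower in clone 1 and higher in clone 2, and Aldh1l1 lower in each clone alone. Gfap averaged 2691 CPM in parental cells, 1.59 in clone 1 and 9.70 in clone 2. The astrocyte markers summed to 11350 and 11181 CPM in parental libraries 1 and 2, against 3099 and 3152 for clone 1 and 4055 and 4112 for clone 2. Their part in the lysosomal results was not tested. All 11 microglia markers were under 1 CPM in every library, with sums of 2.31 and 1.88 CPM in the parental and 0.981 to 1.30 CPM in the knockout libraries, and 1 of the 6 tested, Ptprc, fell. Their part in the lysosomal results was not tested either. Of the neuron markers 3 of 7 fell, of the oligodendrocyte markers 1 rose and 2 fell of 6 tested, and 5 of 6 mesenchymal markers were under 1 CPM.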

How the data were processed

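RNA of 6 libraries was read. Per the labels' protocols, total RNA was column-purified and libraries were made with a SMART-Seq or a TruSeq kit, without saying which library had which. The submitters' processing notes name STAR, featureCounts and the builds GRCm38.p6 and mm10; versions, strand and multi-mapping settings are not given in the sources read, so overlapping, antisense and near-identical genes cannot be told apart, and 19 of the 52 genes share exonic bases with another gene. The deposited values are raw whole-number counts per gene, not normalized by the authors.

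Analysis used R 4.3.3, edgeR 4.0.16 (quasi-likelihood test, robust), limma 3.58.1 and DESeq2 1.42.0. Genes were kept by filterByExpr with a minimum count of 10 and scaled by TMM; p-values were adjusted by Benjamini-Hochberg over all genes, with 0.05 as the threshold for rose, fell or passed. For the joint comparison of labelled knockout and parental cells, counts were summed within each clone (4 columns, 2 residual degrees of freedom). Clone comparisons are contrasts of 1 fit of 6 libraries in 3 groups (3 residual degrees of freedom). The SE is the log2 fold change divided by the root of F. CPM uses TMM-scaled totals, and CPM per kilobase the exonic length in GENCODE. Precision comes from the spread between the columns of each fit, since reads without molecular identifiers are not independent. Those columns are the parental libraries and the clone sums in the joint comparison, and the single libraries in the clone comparisons. The scripts were tested on simulated data.

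The genes and lists were chosen with earlier results of these data known. Values in every library are given for the genes that passed in labelled knockout against parental cells, for the 2 others of each role with the largest change in either clone, for the 8 with the largest difference between clones and for any called in opposite directions; from each related list up to 4 passing genes with the smallest adjusted p are named, besides Tfeb, Tfe3, Mitf, Igf2r and M6pr. Genes around Cln3 and the sums and levels of other genes were named after their values were seen. Levels of the targeted gene are not reported here.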

Additional observations from a re-analysis of the deposited data

Results flagged for a closer look

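The change from parental cells differed between the clones in 26 of the 52 lysosomal genes, by the test of clone 2 against clone 1, which is also the difference of their changes from the parental libraries. The values are log2 differences, clone 2 minus clone 1. The 13 positive differences were Manba 0.73, Ctsf 0.60, Ctsd 0.42, Psap 0.40, Sgsh 0.36, Gaa 0.35, Gm2a 0.34, Smpd1 0.23, Ctsa 0.23, Gusb 0.23, Naglu 0.21, Cln8 0.20, Arsb 0.13. The 13 negative differences were Idua -0.58, Lamp2 -0.57, Gla -0.48, Ctsl -0.34, Atp6v1b2 -0.33, Asah1 -0.30, Atp6v1a -0.29, Lipa -0.23, Ppt1 -0.23, Cd63 -0.22, Ids -0.18, Man2b1 -0.17, Atp6ap1 -0.12. In the proteases Ctsd, Ctsf and Ctsa were higher in clone 2, while Ctsl and Ppt1 were lower. All of the differing V-ATPase genes, Atp6v1a, Atp6v1b2 and Atp6ap1, were lower in clone 2. The differences of Arsb, Atp6ap1, Cln8, Gusb, Ids, Lipa, Man2b1, Naglu and Ppt1 did not pass in at least 1 of the fits that leave out a library. The labels do not say whether the 2 libraries of a clone are separate cultures.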

How the results depend on the processing

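No gene that passed in either fit changed direction under any alternative. In labelled knockout against parental cells, leaving out 1 library gave 2 to 14 genes higher and 6 to 14 lower (2 and 6 without parental library 1, 3 and 6 without parental library 2), and treating libraries as replicates gave 42 of the 52 (19 higher and 23 lower), while 56.5% of all genes passed; that setting counts libraries of a clone as independent. Of all genes, 9.62% and 9.59% passed without parental library 1 or 2. In clone 2 against clone 1, leaving out 1 library gave 10 to 14 higher and 8 to 16 lower, with 8 without clone 2 library 1. With 1 parental library left, its spread is taken to be like that of the other columns. The counts of labelled knockout genes under the other settings were 22 with DESeq2's size factors, 23 with upper quartile scaling, 27 without a filter, 19 of 49 above 5 CPM, 27 with DESeq2 and 27 with limma-voom. Replicate numbers did not pair the libraries (deviations correlated at -0.01, -0.02 and 0.02); with the replicate block 25 genes passed, 12 higher and 13 lower, 23 of them shared with the fit without it. Without a filter the median of all genes shifted by -0.14 to -0.22 against parental cells, with 42365 genes tested. Depth limits Ctsh, Ctsc, Ctsz and Cln3 in the knockout libraries, where counts are low.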
